A study of Homo sapiens with 8 samples.

Results

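Transcripts of 10 genes of the insulin receptor, PI3K and FOXO axis were examined in LNCaP cells that received recombinant asporin (ASPN), a protein secreted by stromal fibroblasts. The genes were chosen by name: the receptors IGF1R and INSR, the adaptors IRS1 and IRS2, the PI3K subunits PIK3CA, PIK3CB and PIK3R1, the lipid phosphatase INPP4B, and the transcription factors FOXO1 and FOXO3. All 10 were among the 36474 genes of the count table, and all 10 passed the filter on low counts that left 21071 genes for testing. LNCaP is a single established human cell line, grown from a lymph node metastasis of prostate carcinoma. All groups share this line and a starvation of 6 to 12 h in medium lacking serum and calcium, and they differ in the hours after rASPN at 100 ng/mL was added. All are labelled as ASPN-treated, but the labels also name a buffer treatment and do not say whether the 0 h wells received rASPN or buffer. The study asked which transcripts follow when prostate cancer cells meet extracellular ASPN. The table holds 2 libraries collected at 0 h and 3 for each later time. Cells kept in that medium without ASPN for 12 or 24 h were not analysed here, and ASPN and time in the starvation medium cannot be told apart in any comparison below.

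Insulin and insulin-like growth factors bind the tyrosine kinase receptors INSR and IGF1R, which phosphorylate the docking proteins IRS1 and IRS2. These recruit PI3K, a dimer of a catalytic subunit such as p110α (PIK3CA) or p110β (PIK3CB) and a regulatory subunit such as p85α (PIK3R1), and the lipid it makes draws AKT to the membrane. Phosphatases such as INPP4B remove phosphates from these lipids, and AKT keeps FOXO1 and FOXO3 out of the nucleus. HER3 (ERBB3) also docks PI3K directly. RNA levels do not measure any of these protein states.

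The libraries held 73406825 to 96962135 counts. The summed level of 10 luminal prostate markers, all present, lay between 5740 and 6462 CPM (counts scaled by TMM to a common library size), with no overlap between the 3 time points and the highest values at 24 h. Stromal markers summed to 21.2 to 23.8 CPM, most of it COL1A1. Leukocyte markers summed to 0.0136 to 0.218 CPM and endothelial markers to 11.2 to 17.3 CPM, the latter nearly all VWF. The part of these levels in the results was not tested. Wells were plated in triplicate, and p values measure the spread between wells of 1 line.

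Small shifts in a few of the 10 genes were seen, led by a fall of INPP4B and a rise of PIK3R1 at 24 h. At 12 h against 0 h, 1 gene was higher (IGF1R) and 1 lower (INPP4B) at an adjusted p of at most 0.05 by the quasi-likelihood F test of edgeR. Over all genes tested, 4.85% were higher and 6.75% lower. At 24 h against 0 h, 1 was higher (PIK3R1) and 2 were lower (PIK3CA and INPP4B), against 7.82% and 8.49% of all genes. Between 12 and 24 h, 1 was higher (PIK3R1) and 0 were lower, against 1.12% and 1.61% of all genes. INPP4B was lower there at an unadjusted p under 0.05, as 1 gene of the 10, and DESeq2 passed 0 as lower. By edgeR, 0 of the 10 reached a 1.5-fold change with that adjusted p in any comparison, a threshold that 1.05% of all genes passed at 12 h, 2.45% at 24 h and 0.18% between 12 and 24 h. Groups did not overlap for 7 of the 10 genes at 12 h against 0 h, for 8 at 24 h against 0 h and for 4 between 12 and 24 h. The shares among all genes were 36.9%, 43.2% and 19.6%. The median log2 change of the 10 genes was -0.09 at 12 h and -0.07 at 24 h against 0 h and 0.05 between 12 and 24 h, and the medians of all genes were -0.00069, -0.0031 and 0.0035. Both comparisons with 0 h use the same pair of time-0 libraries.

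**Figure D1:**
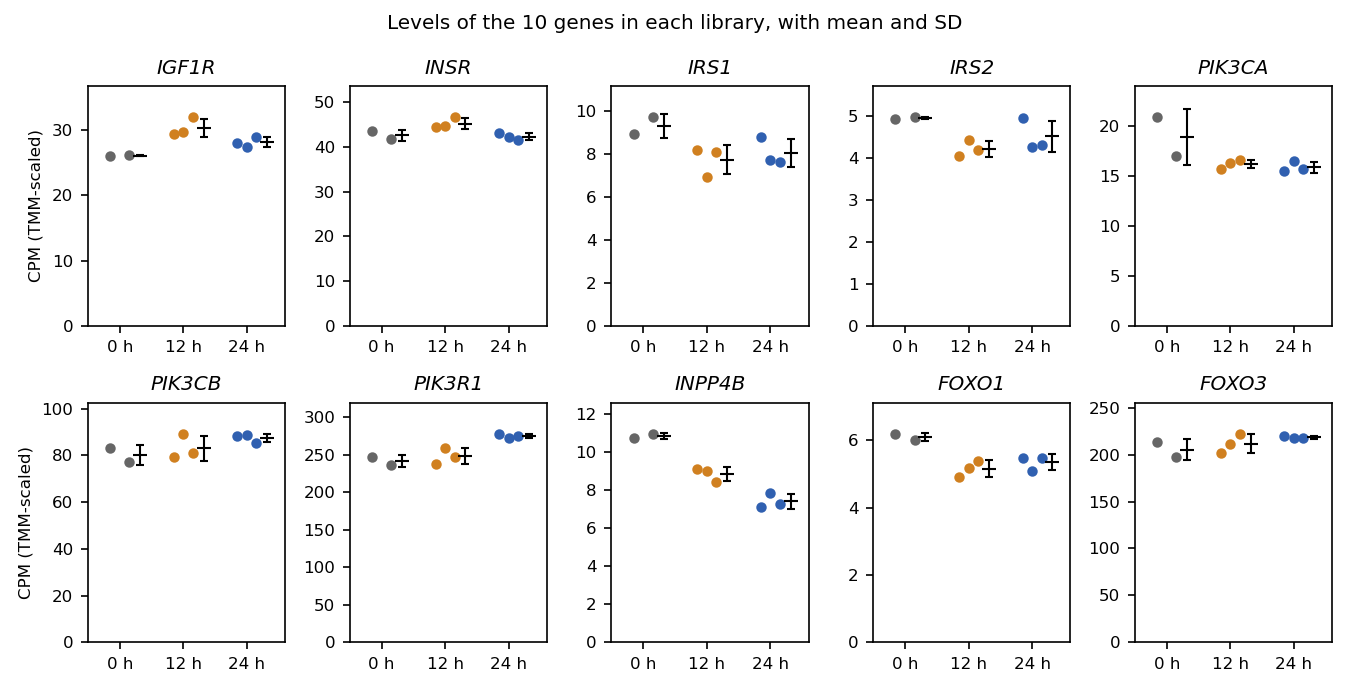
Levels of the 10 genes in CPM (TMM-scaled; each panel has its own axis from 0), with a point for each library at 0, 12 and 24 h and the group mean with SD beside them. INPP4B steps down from a mean of 10.8 to 8.82 and 7.40 CPM, and PIK3R1 stands at 275 CPM at 24 h with all 3 libraries above the others.

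IGF1R, the receptor for insulin-like growth factors (ENSG00000140443.15, chr15:98648539-98964530 on GRCh38), was higher at 12 h than at 0 h. The time-0 libraries held 26.0 and 26.1 CPM, those at 12 h 29.4, 29.7 and 31.9 CPM, and those at 24 h 28.0, 27.4 and 28.9 CPM. The pair at 0 h lay below every later library, and every library at 12 h lay above those at 24 h. The log2 change at 12 h was 0.22 (SE 0.062, edgeR adjusted p = 0.0169), a level 16.5% higher in 3 of 3 libraries. At 24 h it was 0.11 (95% interval -0.02 to 0.24, adjusted p = 0.267), and between 12 and 24 h -0.11 (adjusted p = 0.376). The call at 12 h was lost without time-0 replicate 1 (adjusted p = 0.151) and without 12 h replicate 3 (adjusted p = 0.0977). In bulk RNA such as this, fewer cells expressing a gene and less RNA per cell cannot be told apart.

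INSR, the insulin receptor (ENSG00000171105.14, chr19:7112255-7294414), passed in no comparison. Its libraries held 43.5 and 41.8 CPM at 0 h, 44.4, 44.7 and 46.6 CPM at 12 h, and 43.2, 42.2 and 41.5 CPM at 24 h. The 12 h libraries were the highest, and those at 0 and 24 h overlapped. The fitted log2 change was 0.08 at 12 h (95% interval -0.03 to 0.20, adjusted p = 0.374) and -0.01 at 24 h (95% interval -0.12 to 0.10, adjusted p = 0.927). At 24 h a change of over 0.12 in either direction thus lay outside the interval.

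IRS1 and IRS2 dock PI3K to the activated receptors. IRS1 (ENSG00000169047.6, chr2:226731312-226799820) stood at 8.92 and 9.71 CPM at 0 h, at 8.17, 6.94 and 8.11 CPM at 12 h, and at 8.79, 7.70 and 7.64 CPM at 24 h. All 6 later libraries were below both at 0 h, 24 h replicate 1 by the least. On the log2 scale IRS1 differed by -0.27 at 12 h (SE 0.10, 95% interval -0.47 to -0.06, edgeR adjusted p = 0.0843). At 24 h it differed by -0.21 (adjusted p = 0.168), and neither passed. IRS2 (ENSG00000185950.9, chr13:109752695-109786583) held 4.94 and 4.98 CPM at 0 h, 4.06, 4.44 and 4.19 CPM at 12 h, and 4.96, 4.28 and 4.33 CPM at 24 h. Its 12 h libraries were below both at 0 h, and at 24 h replicate 1 lay within them. IRS2 differed by -0.23 on the log2 scale at 12 h (95% interval -0.48 to 0.02, adjusted p = 0.261) and -0.13 at 24 h (95% interval -0.38 to 0.11, adjusted p = 0.542). IRS1 and IRS2 were among the lowest-counted of the 10 genes. Their intervals were wider than the changes, though that of IRS1 at 12 h lay below 0.

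PIK3CA encodes the catalytic subunit p110α (ENSG00000121879.6, chr3:179148114-179240093). Its promoter is shown because it alone among the 10 genes holds the letters of the core FOXO motif, GTAAACA on either strand, in the 250 bases before the main start (the MANE Select transcript; RefSeq, GRCh38.p14). The match reads in its reverse form, given in capitals, and begins 149 bases before the start. The 29 bases printed lie at chr3:179148197-179148225 on the plus strand. Of the 250 bases, 106 lie in an annotated exon of a PIK3CA transcript with an earlier start, and the match is within them.
PIK3CA: agttcgttgttTGTTTACacgatgtgagc
Of all 35116 promoters searched, 2.98% hold a match in such a window. A match is a description of letters, and binding was not measured. PIK3CA held 20.9 CPM in time-0 replicate 1 and 16.9 CPM in the time-0 library without a number, 15.7, 16.3 and 16.5 CPM at 12 h, and 15.4, 16.5 and 15.7 CPM at 24 h. Replicate 1 at 0 h stood apart from the other 7 libraries, which lay between 15.4 and 16.9 CPM, and all later libraries were below both at 0 h. The log2 change was -0.23 at 12 h (adjusted p = 0.0602) and -0.25 at 24 h (SE 0.079, edgeR adjusted p = 0.0230), where the level fell by 16.2%. Without time-0 replicate 1 the change at 24 h was -0.10 (adjusted p = 0.639), and the call was also lost without 24 h replicate 1 (adjusted p = 0.0928) and 24 h replicate 3 (adjusted p = 0.0730). Without the other time-0 library the change at 12 h was -0.35 (adjusted p = 0.00582). Of its exon bases, 19.8% lie opposite KCNMB3, which had 649 counts over all libraries against 11333 for PIK3CA. Of the longest PIK3CA transcript, 36.8% matches KCNMB3. Reads without strand could thus be shared. On chromosome 22, KCNMB3P1 is 98.2% identical to 29.3% of the longest PIK3CA transcript. A second pseudogene there is 97.5% identical to 5.27% of it, and both lack counts in the table.

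PIK3CB, the catalytic subunit p110β (ENSG00000051382.9, chr3:138652698-138834928), passed in no comparison. The libraries held 83.3 and 77.3 CPM at 0 h, 79.2, 89.2 and 81.0 CPM at 12 h, and 88.3, 88.8 and 85.4 CPM at 24 h. Those at 24 h were above both at 0 h, and those at 12 h overlapped with both other groups. The log2 change at 24 h was 0.12 (95% interval 0.01 to 0.23, edgeR adjusted p = 0.121). At 12 h it was 0.05 (95% interval -0.06 to 0.16, adjusted p = 0.645).

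PIK3R1 encodes the regulatory subunit p85α and shorter forms from later starts (ENSG00000145675.15, chr5:68215756-68301821), and counts per gene do not separate them. It was level at 12 h and higher at 24 h. Its promoter and that of INPP4B are shown because these genes kept their change at 24 h under every alternative tried. The stretch is the 150 bases of the plus strand before the first annotated exon, at chr5:68215590-68215739, with matches to the GC box (GGGCGG on either strand) in capitals.
PIK3R1: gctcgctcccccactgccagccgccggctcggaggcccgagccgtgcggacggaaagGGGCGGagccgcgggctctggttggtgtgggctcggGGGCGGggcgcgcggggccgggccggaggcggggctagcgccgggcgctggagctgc
The full window of 250 bases holds 5 GC boxes and is 81.6% G or C, and 42.6% of all promoters hold at least 1.

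The libraries for PIK3R1 held 247 and 236 CPM at 0 h, 238, 259 and 247 CPM at 12 h, and 278, 273 and 275 CPM at 24 h. All 3 at 24 h were above the other 5, while those at 0 and 12 h overlapped. The log2 change was 0.19 at 24 h against 0 h (SE 0.045, edgeR adjusted p = 0.00290), a level 14% higher, and 0.04 at 12 h (95% interval -0.05 to 0.13, adjusted p = 0.674). Between 12 and 24 h it was 0.15 (SE 0.040, adjusted p = 0.0333). The change against 0 h passed under all 13 alternatives, at 0.16 to 0.22 with adjusted p from 0.000135 to 0.0349. The call between 12 and 24 h was lost without 12 h replicate 1 (adjusted p = 0.108), 12 h replicate 3 (0.143), and 24 h replicates 1, 2 and 3 (0.169, 0.152 and 0.153). By the likeness of its levels over the 8 libraries (Pearson r of log2 CPM, 12572 genes compared), the nearest genes to PIK3R1 were DHRS13, TFRC, UBE2N and ANTXR1 (r = 0.98 each) and NOVA1 (r = 0.97). These values describe the pattern and share the libraries and their depth.

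INPP4B encodes a phosphatase that removes the 4-phosphate from the lipid PI(3,4)P2, which helps to activate AKT (ENSG00000109452.12, chr4:142023160-142847432), and it showed the largest change of the 10 genes. Its main promoter has no GC box, is 70.8% G or C, and alone among the 10 main promoters holds the letters TATAAA (either strand, 10.7% of all promoters). The match, in capitals, begins 31 bases before the start. The 29 bases printed lie at chr4:142846315-142846343, read on the minus strand. The 30 bases nearest the start lie in an annotated INPP4B exon and hold most of the match. Among the 10 main windows, PIK3CA alone holds matches to more than 1 of the 3 motifs, and these do not overlap.
INPP4B: aggcttcggtcTATAAAtagcaggttaca

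The libraries for INPP4B held 10.7 and 10.9 CPM at 0 h, 9.09, 8.97 and 8.41 CPM at 12 h, and 7.12, 7.83 and 7.26 CPM at 24 h. The 3 groups did not overlap, and the levels stepped down from each time point to the next. INPP4B changed by -0.30 on the log2 scale at 12 h (SE 0.090, edgeR adjusted p = 0.0282) and, to the later time, by -0.55 (SE 0.091, adjusted p = 3.77e-05), where the level fell by 31.6% in 3 of 3 libraries. Between 12 and 24 h it was -0.25 (95% interval -0.42 to -0.08, adjusted p = 0.105). The 24 h interval against 0 h, -0.73 to -0.36, reaches past a 1.5-fold change, and the estimate lies just short of it. The change at 24 h passed under all 13 alternatives, at -0.59 to -0.52. The call at 12 h was lost without time-0 replicate 1 (adjusted p = 0.169), the time-0 library without a number (0.125) and 12 h replicate 3 (0.116). Nearest in pattern over the 8 libraries were ACTRT3, FTSJ1 and ZNF165 (r = 0.99 each) and CHPF and PTOV1-AS1 (r = 0.98 each), again as a description.

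**Figure D2:**
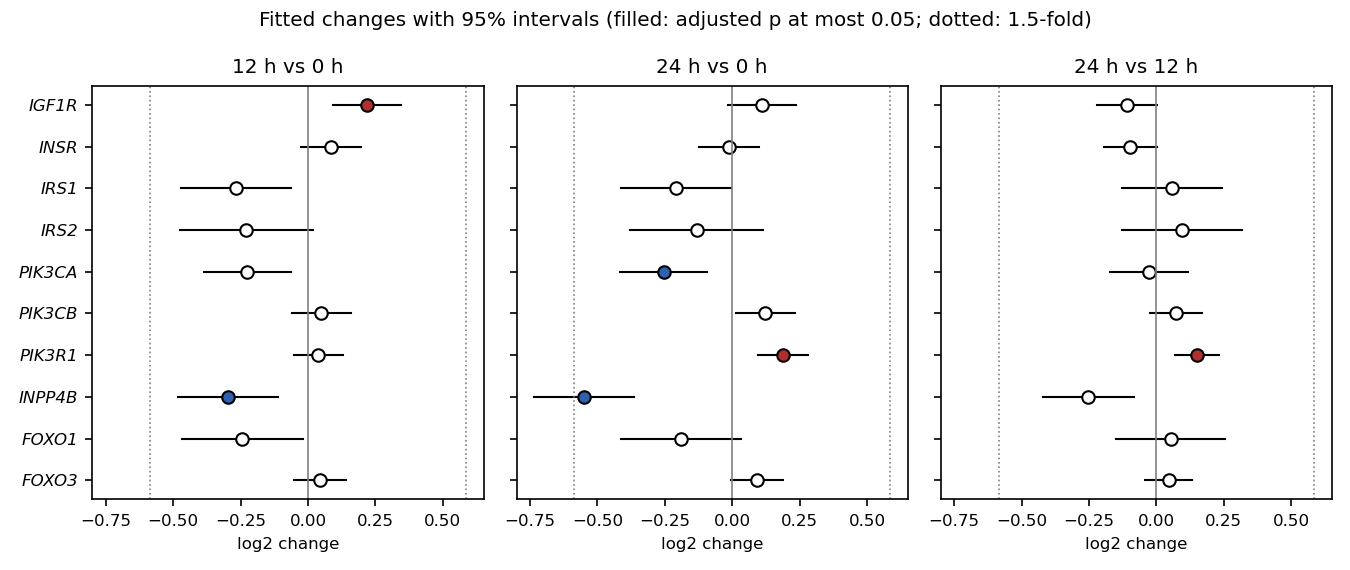
Fitted log2 changes of the 10 genes in 3 comparisons, with 95% intervals as lines, filled points where the edgeR adjusted p was at most 0.05 (red higher, blue lower) and dotted lines at a 1.5-fold change. INPP4B at 24 h against 0 h (-0.55) is the point farthest from 0.

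FOXO1, a transcription factor of metabolic and growth-arrest genes that AKT inactivates (ENSG00000150907.10, chr13:40555667-40666641), held 6.20 and 6.02 CPM at 0 h, 4.90, 5.18 and 5.39 CPM at 12 h, and 5.49, 5.10 and 5.49 CPM at 24 h. All later libraries were below both at 0 h. The log2 change was -0.24 at 12 h (95% interval -0.47 to -0.02, edgeR adjusted p = 0.165) and -0.19 at 24 h (95% interval -0.41 to 0.03, adjusted p = 0.274), and neither passed. Of its exon bases, 22.7% are shared with an overlapping non-coding RNA on the same strand that has no row in the table.

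FOXO3, a factor of the same family (ENSG00000118689.15, chr6:108559835-108684774), held 213 and 197 CPM at 0 h, 201, 212 and 222 CPM at 12 h, and 219.9, 218 and 217 CPM at 24 h. Those at 24 h were above both at 0 h, and those at 12 h overlapped with both. FOXO3 had log2 changes of 0.04 at 12 h (95% interval -0.05 to 0.14, adjusted p = 0.635) and 0.09 at 24 h (95% interval -0.01 to 0.19, adjusted p = 0.221). Its counts are uncertain, since 74.3% of its longest transcript is 98.3% identical to FOXO3B on chromosome 17, which had 9959 counts over all libraries.

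Per kilobase of exon, FOXO3 had the highest level of the 10 genes at 0 h with 26.7 CPM per kb, then PIK3R1 with 14.8, PIK3CB with 10.2, INSR with 3.94 and IGF1R with 1.87 CPM per kb. PIK3CA (1.10), FOXO1 (1.03), IRS1 (0.930), INPP4B (0.744) and IRS2 (0.608 CPM per kb) followed. Over the 8 libraries the ranges of the first 5 did not meet those of their neighbours in this order, while PIK3CA and FOXO1, FOXO1 and IRS1, IRS1 and INPP4B, and INPP4B and IRS2 each overlapped. p110β transcripts were thus several times more abundant per length than p110α transcripts at 0 h. The order depends on the exons counted. For PIK3R1 and INPP4B the lengths come from another version of the gene model than the one counted. With the length of the main transcript alone, PIK3R1 led with 34.7 CPM per kb, above FOXO3 with 28.1, and INPP4B (1.24) stood above FOXO1 (1.06 CPM per kb).

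**Figure D3:**
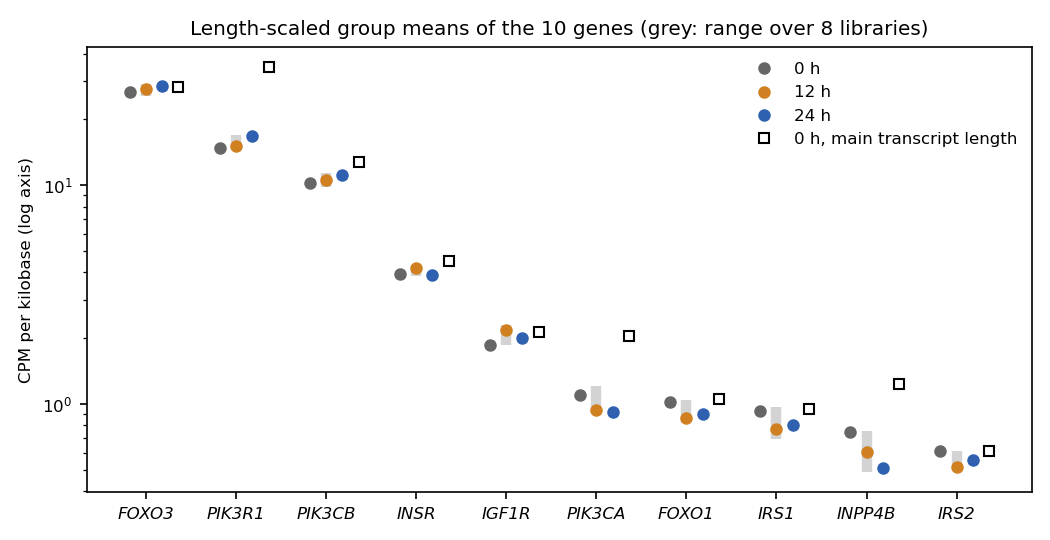
Group means in CPM per kilobase of all annotated exons (log axis) for the 10 genes at 0, 12 and 24 h, with grey bars for the range over the 8 libraries and open squares for the 0 h level by main transcript length. FOXO3 is at 26.7 and IRS2 at 0.608 CPM per kb at 0 h, and the squares put PIK3R1 first.

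The other genes of the pathway were described from a list of 85 set by role, of which 74 were tested. At 12 h against 0 h, 7 were higher and 11 lower, with a median log2 change of -0.06 (9 and 9 with upper-quartile scaling), where 4.85% and 6.75% of all genes passed. At 24 h against 0 h, 11 were higher and 16 lower (median -0.03), against 7.82% and 8.49% of all genes. Between 12 and 24 h, 2 were higher and 3 lower (median -0.01), against 1.12% and 1.61%. Past 1.5-fold with that adjusted p were GADD45A and PIK3R5 at both 12 and 24 h against 0 h, and 0 genes between 12 and 24 h. Without time-0 replicate 1, 4 passed at 12 h and 14 at 24 h. At 24 h, 17 passed without 24 h replicate 1 and 16 without 24 h replicate 3.

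Of 10 other phosphatases, 3 rose and 3 fell at 24 h, where 7.82% of all genes were higher and 8.49% lower. INPP5K, a 5-phosphatase known to dampen insulin signals, fell with log2 changes of -0.28 at 12 h (adjusted p = 0.00135, and 0.0664 without time-0 replicate 1) and -0.44 at 24 h (adjusted p = 1.39e-06).

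INPP4A, the relative of INPP4B, rose by 0.26 on the log2 scale at 24 h (edgeR adjusted p = 0.00881), while INPP4B fell in the same libraries. INPP4A held 20.3 and 19.8 CPM at 0 h and 24.0, 22.8 and 25.1 CPM at 24 h, without overlap. Its call was lost without time-0 replicate 1 (adjusted p = 0.0580), the other time-0 library (0.0524) and 24 h replicate 3 (0.0559). INPP5E, a 5-phosphatase of the primary cilium, rose by 0.32 at 12 h (edgeR adjusted p = 0.00825) and 0.23 at 24 h (adjusted p = 0.0481). Both calls were lost without time-0 replicate 1, where the changes were 0.20 and 0.11. The call at 24 h was also lost without 12 h replicate 3 (0.0578) and 24 h replicates 1, 2 and 3 (0.178, 0.104 and 0.0559). PHLPP2, a protein phosphatase of AKT, rose by 0.21 (adjusted p = 0.0488) but without any 1 library other than 12 h replicate 1 or 2 its adjusted p was 0.0540 to 0.260.

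Among 10 other PI3K subunits and regulators, 3 rose and 1 fell at 24 h, against 7.82% and 8.49% of all genes. PIK3R3, the regulatory subunit p55γ, was higher at 24 h as PIK3R1 was, with 137 and 136 CPM at 0 h and 159.8, 159 and 158 CPM at 24 h. Its log2 change was 0.22 (SE 0.050, edgeR adjusted p = 0.00231), and it passed under every alternative. A read-through transcript shares 17.5% of its exon bases. PIK3IP1, a transmembrane inhibitor of PI3K, rose by 0.28 at 12 h (adjusted p = 0.00237) and 0.26 at 24 h (adjusted p = 0.00342), and without time-0 replicate 1 these reached adjusted p of 0.0551 and 0.0547. PIK3R5, a regulatory subunit best known from leukocytes, was past 1.5-fold at both times but at 0.660 to 1.57 CPM.

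Of 9 other adaptors, 3 rose and 1 fell at 24 h, against 7.82% and 8.49% of all genes. SH2B2, which binds the activated insulin receptor, rose by 0.39 (SE 0.10, edgeR adjusted p = 0.00607), and without time-0 replicate 1 the adjusted p was 0.153. The remaining genes named here for the adaptors, receptors and kinases were picked after their values were seen, except ERBB3. GRB10, which binds both receptors and restrains them, had levels of 349.9 and 348 CPM at 0 h, 312, 309.9 and 308 CPM at 12 h and 389, 392 and 382 CPM at 24 h. It was lower at 12 h and higher at 24 h than at 0 h, with no overlap among the 3 groups, and the log2 change between 12 and 24 h was 0.32 (SE 0.037, adjusted p = 1.48e-06). Its calls against 0 h were -0.17 (adjusted p = 0.00479) and 0.15 (adjusted p = 0.00949), and they were lost without time-0 replicate 1 (0.0530 and 0.0580) and, at 24 h, without 24 h replicate 2 (0.0546).

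IGF2R, a receptor that clears IGF2 without signalling through PI3K, fell by 0.32 at 24 h against 0 h (edgeR adjusted p = 1.46e-05). ERBB3, the HER3 gene, held 176 and 181 CPM at 0 h, 202, 193 and 195 CPM at 12 h, and 173, 175 and 179 CPM at 24 h. It had log2 changes of 0.14 at 12 h (adjusted p = 0.0354) and -0.16 between 12 and 24 h (adjusted p = 0.0149). The ERBB3 call at 12 h was lost when only those time points were fitted (0.111) and without 6 single libraries (0.0503 to 0.279), all but the time-0 library without a number and 12 h replicate 2. The call between 12 and 24 h was lost without 12 h replicate 3 (0.0634) and 24 h replicates 1, 2 and 3 (0.120, 0.0927 and 0.0541). AKT1 rose by 0.18 at 12 h (adjusted p = 0.0110) and 0.20 at 24 h (adjusted p = 0.00367), and without time-0 replicate 1 these had adjusted p of 0.231 and 0.112. Of 21 AKT and mTOR kinase genes, 1 rose and 3 fell at 24 h, where 7.82% of all genes were higher and 8.49% lower. Of 5 ligands and binding proteins tested, 0 passed in the 3 comparisons by edgeR, while at 24 h against 0 h 1 was higher by DESeq2 and at an unadjusted p under 0.05.

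Of 15 FOXO target genes tested, 0 rose and 4 fell at 12 h, and 1 rose and 6 fell at 24 h. The shares of all genes were 4.85% higher and 6.75% lower at 12 h, and 7.82% and 8.49% at 24 h. The 1 that rose was CITED2, a transcriptional co-regulator named after its values were seen, with a log2 change of 0.17 (edgeR adjusted p = 0.0157), lost without the time-0 library without a number (0.147) and without 24 h replicates 1 and 3 (0.0560 and 0.124). At 12 h DESeq2 passed the same counts, and at an unadjusted p under 0.05 edgeR had 0 higher and 7 lower. GADD45A, a stress-response gene of growth arrest, fell from 39.6 and 34.6 CPM at 0 h to 26.0, 21.5 and 23.9 CPM at 12 h and 19.0, 20.9 and 20.6 CPM at 24 h. The 3 groups did not overlap, and the log2 change at 24 h was -0.88 (SE 0.073, edgeR adjusted p = 1.95e-10). CDKN1B, the cell-cycle inhibitor p27, fell by 0.36 (adjusted p = 6.89e-07), and FBXO32, a ubiquitin ligase known from muscle wasting, fell by 0.38 (adjusted p = 0.00083). KLF15, a metabolic transcription factor, fell by 0.35 (adjusted p = 0.00493), and was lost without the time-0 library without a number (0.122) and 24 h replicate 1 (0.0642). FOXO4, named after its values were seen, fell by 0.35 at 12 h (adjusted p = 0.000499) and 0.24 at 24 h (adjusted p = 0.0118), the latter lost without the time-0 library without a number (0.122) and 24 h replicate 3 (0.0826). SESN3, likewise picked afterwards, was higher between 12 and 24 h by 0.21 (adjusted p = 0.00909), and this was lost without 24 h replicate 1, 2 or 3 (0.0555, 0.0553 and 0.0808).

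**Figure D4:**
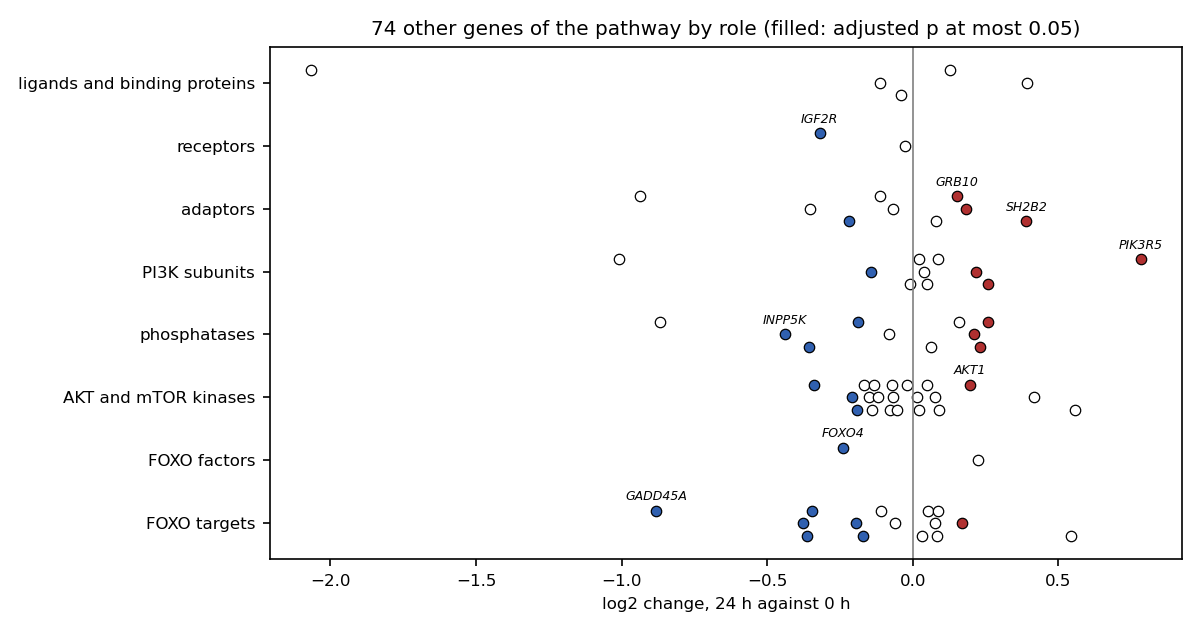
Log2 changes at 24 h against 0 h of the 74 tested genes of the wider list, grouped by role, with filled points where the edgeR adjusted p was at most 0.05 (red higher, blue lower) and some gene names. Among FOXO targets 6 filled points lie below 0 and 1 above. The unfilled points farthest from 0 average under 100 normalized counts.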

How the data were processed

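The table deposited by the authors holds unnormalized whole counts for each gene, made from paired-end 150-base reads by trimming with Cutadapt, alignment to GRCh38 with STAR and counting over GENCODE 38 with featureCounts. Strand and multi-mapping options are not given in the sources used here. Columns were assigned by time and number. The second time-0 column is numbered 3, while the time-0 labels lack this number, and it is called here the time-0 library without a number. The study reports that a time-0 LNCaP replicate was dropped for missing its quality threshold, and does not say which. Replicates differed by more than sampling noise (chi-square per degree of freedom 4.33 to 10.4).

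Here, the robust quasi-likelihood F test of edgeR 4.0.16 (R 4.3.3; TMM; filterByExpr) was fitted to all 8 libraries with 1 coefficient per time point, and p values were adjusted by Benjamini-Hochberg over 21071 genes. The biological coefficient of variation was 5.59%. CPM are TMM-scaled, and a count of 3 corresponds to 0.0309 to 0.0409 CPM by the library totals before that scaling. Intervals are 95%, and the floor covers counting error only. Lengths came from GENCODE 44, whose coordinates matched for 30996 of 30996 genes with the same versioned identifier, and promoters from RefSeq for all 10 genes (22 starts). PIK3R1 and INPP4B have another versioned identifier there, so their lengths may differ from those of the gene models counted. Near-identical copies were sought in the transcripts with BLAST. The fit was also run on simulated counts with the same spread for all genes, which cannot vouch for the calls in these libraries. The members, the list of 85 pathway genes and the tests were chosen with earlier results of these data known. Named pathway genes were the 6 largest increases and 6 largest decreases at 24 h against 0 h among passing genes averaging 100 normalized counts or more, plus ERBB3. Another gene that this rule names is not reported here. Likeness was taken on log2(CPM + 0.1). Alternatives were DESeq2 1.42.0, RLE and upper-quartile scaling, no filter, the compared time points alone, the replicate number as a block, and leaving out each library in turn. Alternatives for the named pathway genes and the main transcript length were added after seeing the data.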

Additional observations from a re-analysis of the deposited data

How the results depend on the processing

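Of the 10 genes, PIK3R1 and INPP4B at 24 h against 0 h passed in all 13 alternatives. Leaving out each library in turn gave 0 to 2 of the 10 genes past the threshold at 12 h against 0 h and 0 to 1 between 12 and 24 h. The wider list gave 4 to 21, 14 to 32 and 2 to 7 genes in the 3 comparisons, and all genes tested 624 to 2761, 1597 to 4047 and 222 to 730, with the lowest counts against 0 h without time-0 replicate 1. Where a time-0 library is left out, the remaining one is assumed to vary like the other groups. Changes that turned sign were small, at -0.035 to 0.013 for INSR at 24 h against 0 h, -0.016 to 0.093 for IRS1 between 12 and 24 h and -0.0054 to 0.10 for PIK3CB at 12 h. Between 12 and 24 h, DESeq2 passed 8 genes of the wider list against 5, and at 12 h a fit to the compared time points alone passed 10 against 18. With the replicate number as a block, 865 genes passed between 12 and 24 h against 574, of which 8 were of the wider list and 1 of the 10. Whether the numbers pair the libraries was not settled, since all correlations between 12 h and 24 h libraries were weak. Same-numbered ones correlated at 0.11, 0.03 and 0.03, and differently numbered ones at -0.08 to 0.06. The best match of 12 h replicate 2 was 24 h replicate 3 (0.06). The groups at 0 h and later share only the number 1, so no blocked fit was made there. The cause of these differences was not tested.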
